A study of Mus musculus with 6 samples.

Results

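The genes of MHC class II antigen presentation were examined as 10 genes taken by name from the deposited expression table of 54167 genes. They were *H2-Aa*, *H2-Ab1*, *H2-Eb1*, *H2-Eb2*, *H2-DMa*, *H2-DMb1*, *H2-DMb2*, *Cd74*, *Ciita* and *Ctss*, and all 10 were found. RNA-seq had been performed on 6 colorectal tumors, 3 labelled *Trp53fl/fl* and 3 labelled *Pvillin+Trp53fl/fl* (*VP*), from mice of the C57BL/6J strain. Both genotypes carry *Trp53* alleles flanked by loxP sites, and the *VP* mice carry in addition a Cre driven by the villin promoter, which is active in intestinal epithelial cells. Immune and stromal cells of a *VP* tumor are therefore outside the cells that this promoter marks. According to the methods, male mice aged 8 weeks received the carcinogen azoxymethane (AOM) at 10 mg/kg in both groups. They then drank water with 2.5% dextran sulfate sodium (DSS), an agent that injures the colonic lining and inflames it, for 7 days in each repeated cycle, and tumors were evaluated on day 98. Each library is called a tumor here, although the sources used do not say whether it holds a single tumor, nor that those of a genotype came from separate mice, so p-values measure the spread between these samples.

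Expression was given in TPM, a share of transcripts that accounts for the length of each gene and sums to a common total per tumor. Read numbers cannot be had from TPM, and the depth behind each value is unknown. *Trp53* ran from 99.3 to 147 TPM in the *Trp53fl/fl* tumors and from 27.8 to 38.5 TPM in the *VP* tumors, on the side that the labels give. *Epcam*, the epithelial adhesion molecule, ran from 1159 to 1526 TPM over the 6 tumors, and *Ptprc*, the pan-leukocyte antigen CD45, from 7.90 to 16.4 TPM. In whole tumors, fewer cells of a type and less RNA per cell cannot be told apart.

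MHC class II molecules display peptides from internalized proteins to CD4 T cells. Dendritic cells, B cells and macrophages make them constantly, and other cells, intestinal epithelium among them, can be induced to do so by interferon gamma. The α and β chains assemble in the endoplasmic reticulum with the invariant chain CD74, which cathepsin S (*Ctss*) cuts down to a short remnant, and the DM heterodimer then exchanges this remnant for peptide. The coactivator CIITA binds no DNA itself and acts through factors that sit on the X and Y boxes of class II promoters.

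The promoter stretches of 5 members are shown because these genes carry the X and Y boxes at a nearly fixed distance. A link between this arrangement and the levels in the tumors was not tested. The sequences are those of RefSeq on GRCm38.p6, in which 7 of the 10 members have an entry, while *H2-Ab1*, *Cd74* and *Ciita* were not matched. They are written 5′ to 3′ on the strand of the gene. Capitals mark the Y box (TGATTGG) and the 6 bases that end in the AAC of the X box.
*H2-Aa* (chr17:34287857-34287919, minus strand): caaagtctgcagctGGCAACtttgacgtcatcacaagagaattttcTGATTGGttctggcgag
*H2-Eb1* (chr17:34305761-34305822, plus strand): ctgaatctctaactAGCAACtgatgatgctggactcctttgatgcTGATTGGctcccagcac
*H2-Eb2* (chr17:34325528-34325589, plus strand): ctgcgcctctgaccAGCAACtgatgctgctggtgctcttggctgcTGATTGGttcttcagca
*H2-DMb1* (chr17:34153082-34153144, plus strand): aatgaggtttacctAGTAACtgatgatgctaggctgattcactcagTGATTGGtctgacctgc
*H2-DMb2* (chr17:34145111-34145173, plus strand): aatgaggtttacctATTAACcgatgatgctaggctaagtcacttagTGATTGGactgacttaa

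All of these stretches lay in the 250 bases before the annotated transcription start. The Y box began 50 bases before the start in *H2-Aa*, 61 in *H2-Eb1*, 63 in *H2-DMb1*, 92 in *H2-DMb2* and 102 in *H2-Eb2*. From the AAC to the Y box, counted from the start of each, there were 28 bases in *H2-Eb1* and *H2-Eb2* and 29 in the other 3. TGATTGG was present on either strand in 5 of the 7 members and in 7.23% of all 32851 promoter entries. The shorter CCAAT, which TGATTGG contains on the opposite strand, was present in 6 of the 7 and in 33.8% of entries, and AGCAAC in 2 of the 7 and in 12.2%. The arrangement of AAC, 25 or 26 bases and TGATTGG was read off these sequences after they had been seen, and it was held by the same 5 members, by *H2-Oa* and by 0.225% of entries. The entries of *H2-DMa* and *Ctss* did not hold it. The stretches of *H2-DMb1* and *H2-DMb2* were, aligned on the Y box, identical at 54 of 63 bases (85.7%), and those of *H2-Eb1* and *H2-Eb2* at 42 of 62 (67.7%). How the quantification divided reads between such gene pairs is not given in the sources used here, so their values are uncertain.

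The class II genes did not separate the genotypes, but for most of them *VP* replicate 1 lay below all other tumors. In *VP* replicate 1 the chains *H2-Aa*, *H2-Ab1* and *H2-Eb1*, *Cd74* and *Ciita* stood at 0.368 to 0.482 of the *Trp53fl/fl* mean, whereas in *VP* replicates 2 and 3 they stood at 1.07 to 1.70 of it. The 3 *Trp53fl/fl* tumors lay close together for these 5 genes. The expression filter asked for 1 TPM or more in 3 or more tumors, which 9 of the 10 members met and *H2-Eb2* did not. None of the 9 differed between the genotypes with an adjusted p-value under 0.05 (limma on log2(TPM + 1), Benjamini-Hochberg over the 15117 genes tested), and 1 had an unadjusted p-value under 0.05. Over all genes tested, 0.165% passed the adjustment, with 12 genes (0.0794%) higher and 13 (0.0860%) lower in *VP* tumors, or 12 and 8 after median-of-ratios rescaling. The median log2 fold change of the 9 members was -0.05, beside -0.07 over all genes tested, with 4 of the 9 members positive, beside 39.2% of all genes. The count of members past the threshold stayed at 0 in each alternative setting.

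**Figure D1:**
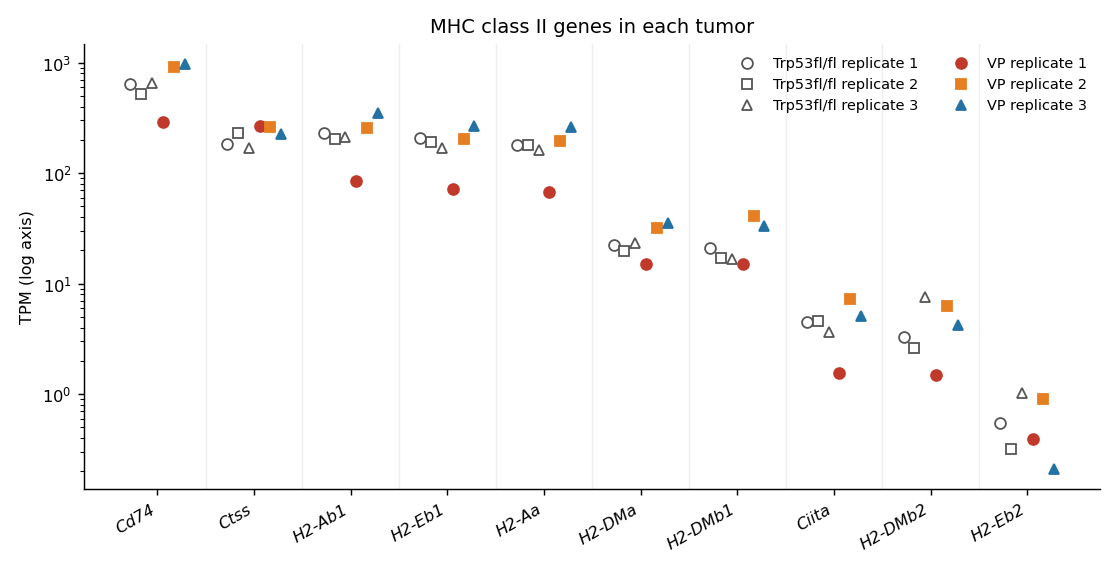
TPM of the 10 class II genes (log axis) in each of the 6 tumors, ordered by mean level, with open grey symbols for *Trp53fl/fl* and filled coloured symbols for *VP* tumors. *VP* replicate 1 is the lowest of the 6 tumors for 8 of the 10 genes, and *Ctss* is an exception, where it is the highest at 269 TPM.

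The chains of the I-A and I-E molecules were measured through *H2-Aa* and *H2-Ab1*, the α and β chains of I-A, and *H2-Eb1*, a β chain of I-E. *H2-Ab1* (ENSMUSG00000073421) was at 229, 202 and 209.9 TPM in *Trp53fl/fl* tumors and at 85.0, 254 and 349.7 TPM in *VP* replicates 1, 2 and 3. The *VP* tumors thus lay on both sides of the *Trp53fl/fl* tumors, with replicate 1 far below and replicates 2 and 3 above all of them. Its mean was 213.8 ± 13.8 TPM and 229.6 ± 134 TPM (SD, n = 3 each), which on the log2 scale is a difference of -0.12 with a 95% interval from -1.23 to 0.99 (limma adjusted p = 0.929).

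*H2-Aa* (ENSMUSG00000036594) was at 178, 178 and 161 TPM in *Trp53fl/fl* tumors and at 67.3, 195 and 259 TPM in *VP* tumors. *H2-Eb1* (ENSMUSG00000060586) was at 208, 189.9 and 168 TPM and at 71.5, 201 and 268 TPM in the same order. The order of the *VP* tumors was the same as for *H2-Ab1* in both genes. For *H2-Aa* both other *VP* tumors exceeded the *Trp53fl/fl* range, and for *H2-Eb1* only *VP* replicate 3 did. The log2 fold changes of *H2-Aa* and *H2-Eb1* were -0.19 and -0.26 (limma adjusted p = 0.872 and 0.822).

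The chain transcripts kept nearly constant proportions while their levels varied. From the lowest to the highest tumor *H2-Aa* differed 3.85-fold, *H2-Ab1* 4.12-fold and *H2-Eb1* 3.75-fold. The ratio of *H2-Ab1* to *H2-Aa* TPM in a tumor ran only from 1.14 to 1.35, a 1.19-fold range, and was 1.26 in *VP* replicate 1. The ratio of *H2-Eb1* to *H2-Aa* ran from 1.03 to 1.17, a 1.13-fold range, and was 1.06 in *VP* replicate 1. The low level of *VP* replicate 1 was therefore shared by the 3 chains in proportion.

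*H2-Eb2*, a β-chain gene beside *H2-Eb1*, was at 0.55, 0.32 and 1.03 TPM in *Trp53fl/fl* tumors and at 0.39, 0.91 and 0.21 TPM in *VP* tumors. Its values overlapped between the genotypes, and its highest tumor was *Trp53fl/fl* replicate 3. It did not meet the expression filter, and its values are too low to show whether it shares the pattern of the other chains. *H2-Ea*, the partner α chain of I-E, was listed at 0 in all 6 tumors. Mice of the C57BL/6 strain are known to lack I-E at the cell surface because this gene is defective in them.

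*Cd74* (ENSMUSG00000024610), the invariant chain, was the most abundant member in every tumor. It was at 640.3, 523 and 648 TPM in *Trp53fl/fl* tumors and at 291, 910.0 and 965 TPM in *VP* tumors. No *VP* tumor fell within the *Trp53fl/fl* range, since replicate 1 was below it and replicates 2 and 3 above it. The log2 fold change was 0.08 with an interval from -0.95 to 1.11 (limma adjusted p = 0.953). The ratio of *Cd74* to *H2-Ab1* ran from 2.59 to 3.58, a 1.38-fold range against the 3.31-fold range of *Cd74* itself.

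*Ciita* (ENSMUSG00000022504), the coactivator, was at 4.52, 4.58 and 3.62 TPM in *Trp53fl/fl* tumors and at 1.56, 7.22 and 5.13 TPM in *VP* tumors. It too was lowest in *VP* replicate 1 and above the *Trp53fl/fl* range in the other *VP* tumors, but here replicate 2 exceeded replicate 3. Its log2 fold change was -0.05 with an interval from -1.01 to 0.92 (limma adjusted p = 0.970), and the sign turned to 0.015 with median-of-ratios rescaling and to 0.036 with quantile normalization. *Ciita* was present at a small fraction of the level of the genes that it activates, with 35.2 to 68.2 TPM of *H2-Ab1* per TPM of *Ciita*.

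The DM chaperone is built of an α chain (*H2-DMa*) and a β chain (*H2-DMb1* or *H2-DMb2*). *H2-DMa* was at 22.5, 19.9 and 23.1 TPM in *Trp53fl/fl* tumors and at 15.2, 31.6 and 35.0 TPM in *VP* tumors. *H2-DMb1* was at 21.1, 17.0 and 16.6 TPM and at 14.9, 41.2 and 33.2 TPM. Both genes had *VP* replicate 1 lowest and the other *VP* tumors above the *Trp53fl/fl* range. *VP* replicate 1 stood less far below than for the chains, at 0.695 of the *Trp53fl/fl* mean for *H2-DMa* and 0.818 for *H2-DMb1*. *H2-DMb1* had the largest positive log2 fold change of the members, 0.57 with an interval from -0.24 to 1.38 (limma adjusted p = 0.514), and that of *H2-DMa* was 0.23 (limma adjusted p = 0.760).

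*H2-DMb2* was at 3.27, 2.62 and 7.54 TPM in *Trp53fl/fl* tumors and at 1.48, 6.33 and 4.26 TPM in *VP* tumors. Its highest value was that of *Trp53fl/fl* replicate 3, and the genotypes overlapped. There were 0.453 TPM of *H2-DMb2* per TPM of *H2-DMb1* in *Trp53fl/fl* replicate 3, against 0.0991 to 0.155 in the other 5 tumors. On the log2 scale its difference of -0.16 (limma adjusted p = 0.904) became 0.22 without *Trp53fl/fl* replicate 3.

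*Ctss* (ENSMUSG00000038642) had another order of tumors than the chains. It was at 182, 228 and 169 TPM in *Trp53fl/fl* tumors and at 269, 261 and 225 TPM in *VP* tumors. *VP* replicate 1, the lowest tumor for the chains, was the highest for *Ctss*, and the genotypes overlapped only where *Trp53fl/fl* replicate 2 exceeded *VP* replicate 3. The mean was 193 ± 31.3 TPM and 252 ± 23.6 TPM (SD, n = 3 each). The log2 fold change of 0.39, with an interval from 0.05 to 0.73, had a limma adjusted p of 0.358. It was the member with an unadjusted p-value under 0.05, a level reached toward *VP* by 4.51% of the genes tested. It stayed between 0.30 and 0.51 with a tumor left out. The ratio of *Ctss* to *Cd74* was 0.923 in *VP* replicate 1 and 0.233 to 0.437 in the other 5 tumors.

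On the per-length TPM scale the order of the mean levels over 6 tumors was *Cd74* (663 TPM), *Ctss* (222.4 TPM), *H2-Ab1* (221.7 TPM), *H2-Eb1* (184 TPM), *H2-Aa* (173 TPM), *H2-DMa* (24.6 TPM), *H2-DMb1* (24.02 TPM), *Ciita* (4.44 TPM), *H2-DMb2* (4.25 TPM) and *H2-Eb2* (0.568 TPM). *Cd74* led in each of the 6 tumors. Within each tumor *H2-Ab1* exceeded *H2-Eb1* and *H2-Eb1* exceeded *H2-Aa*, although the ranges of the 3 genes over the tumors overlapped. *Ctss* and *H2-Ab1* did not keep an order, with *Ctss* above in 3 of 6 tumors, and neither *H2-DMa* and *H2-DMb1* nor *Ciita* and *H2-DMb2* did so in every tumor (5 of 6 each). *H2-Eb2* was last in all 6.

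The *VP* tumors spread more than the *Trp53fl/fl* tumors for 8 of the 9 members tested, all but *Ctss*. In each of these 8 the lower end of the *VP* span was *VP* replicate 1. The share of all genes that spread more in *VP* tumors was not counted. On the log2(TPM + 1) scale the 3 *VP* tumors spanned 2.03 for *H2-Ab1*, a span reached by 1.87% of the 15117 genes tested. For *H2-Aa*, *H2-Eb1*, *Cd74* and *Ciita* the span was 1.68 to 1.93, reached by 2.11% to 2.94% of genes. The median span of all genes tested was 0.35 in *VP* tumors and 0.38 in *Trp53fl/fl* tumors. Among the *Trp53fl/fl* tumors 7 members spanned 0.15 (*H2-Aa*) to 0.33 (*H2-DMb1*), under the *Trp53fl/fl* median, and 57.4% to 87.2% of genes spanned as much. *H2-DMb2* was wide there too, with 1.24, which 5.29% of genes reached. *Ctss* spanned 0.43 in *Trp53fl/fl* tumors and 0.26 in *VP* tumors, which 41.8% and 66% of genes reached. These shares are a description over genes of the same libraries.

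*VP* replicate 1 was the lowest of the 6 tumors for 8 of the 10 members, all but *H2-Eb2* and *Ctss*, beside 20.0% of all genes tested. Without this tumor 9 of the 9 members tested had a positive log2 fold change, beside 40.1% of the genes tested in that fit. Without it 5 members had an unadjusted p-value under 0.05, beside 3.68% of genes higher in *VP* tumors at that level, and none passed the adjustment. The values were then 0.48 for *H2-Ab1*, 0.38 for *H2-Aa*, 0.64 for *Cd74*, 0.59 for *H2-DMa* and 0.99 for *H2-DMb1* (limma adjusted p between 0.248 and 0.495). This tumor was set aside after its values had been seen, and 2 *VP* tumors then stand for the genotype. The median over the members moved from -0.05 with all tumors to 0.44 without it, and the difference in the mean log2 level of the 10 members from 0.04 to 0.44.

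**Figure D2:**
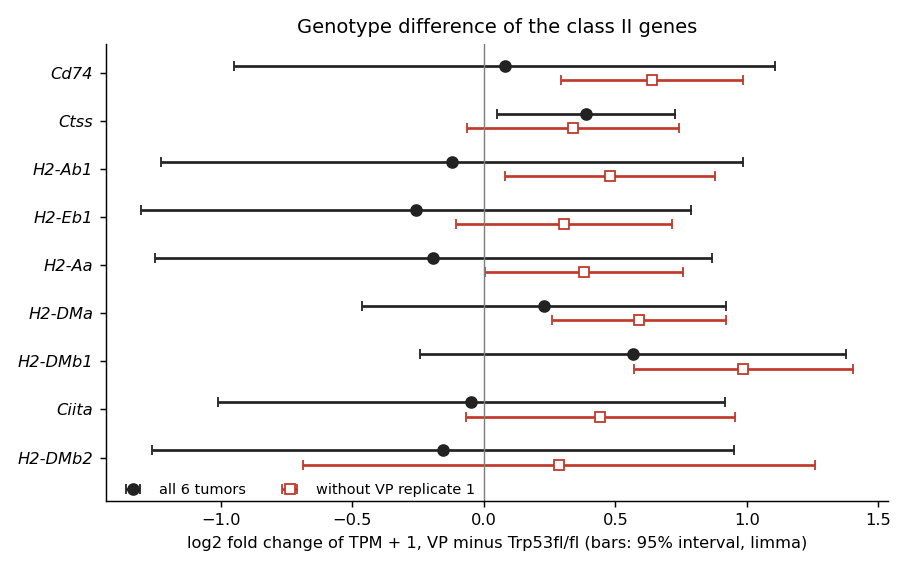
Log2 fold change of TPM + 1, *VP* minus *Trp53fl/fl*, for the 9 members tested, with 95% intervals from limma (filled circles, all 6 tumors; open squares, without *VP* replicate 1). With all tumors 8 of the 9 intervals include 0, and without *VP* replicate 1 the estimates are positive for all 9, from 0.29 for *H2-DMb2* to 0.99 for *H2-DMb1*.

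Of the other genes of class II processing, 13 of the list of 16 symbols were found, 12 were tested and none passed the adjustment (limma). An unadjusted p-value under 0.05 was reached by 2, both toward *VP*, beside 4.51% of all genes tested. These were *Ifi30*, the lysosomal thiol reductase, and *Ctsb*, cathepsin B. *Ifi30* was at 114, 105 and 138 TPM in *Trp53fl/fl* tumors and at 140, 186 and 173 TPM in *VP* tumors, without overlap (log2 fold change 0.48, limma adjusted p = 0.323). *Ctsb* was at 280 to 297 TPM in *Trp53fl/fl* and 340 to 363 TPM in *VP* tumors (log2 fold change 0.28, limma adjusted p = 0.335). In neither gene was *VP* replicate 1 the lowest tumor. No overlap with higher values in *VP* tumors was found for 6.03% of all genes tested, and with lower values for 13.3%.

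*H2-Oa* and *H2-Ob* encode the chains of DO, an inhibitor of DM known mainly from B cells. *H2-Oa* was at 0.63, 1.06 and 3.06 TPM in *Trp53fl/fl* tumors and at 0.07, 1.13 and 0.90 TPM in *VP* tumors. *H2-Ob* was at 1.08, 1.19 and 3.60 TPM and at 0.64, 1.80 and 1.02 TPM. Both were lowest in *VP* replicate 1 and highest in *Trp53fl/fl* replicate 3, the tumor that was also highest for *H2-DMb2* and *H2-Eb2*. Their log2 fold changes were -0.55 and -0.39 (limma adjusted p = 0.593 and 0.664). Of 9 B cell markers, 7 were highest in *Trp53fl/fl* replicate 3, beside 19.9% of all genes tested, and the summed level of the list was 48.9 TPM there against 13.7 to 38.0 TPM in the other 5 tumors. *Cd79a*, a signalling chain of the B cell receptor, was at 16.2 TPM there and at 7.03 to 15.5 TPM in the others, and no B cell marker was at 0 in that tumor. The part of B cells in these values was not tested.

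Among 20 regulators of class II transcription, 19 were tested and none passed the adjustment (limma), with 2 higher and 2 lower in *VP* tumors at an unadjusted p-value under 0.05, beside 4.51% and 8.0% of all genes tested. *Rfx5*, a subunit of the complex on the X box, was at 12.7, 15.2 and 13.5 TPM in *Trp53fl/fl* tumors and at 9.92, 9.19 and 9.46 TPM in *VP* tumors (log2 fold change -0.49, limma adjusted p = 0.278). Its partner *Rfxap* was at 17.5, 15.7 and 15.2 TPM and at 18.1, 26.2 and 23.2 TPM (log2 fold change 0.44, limma adjusted p = 0.346). Both genes separated the genotypes, in opposite directions. Of the 19 regulators tested, 2 were without overlap higher and 4 lower in *VP* tumors, beside 6.03% and 13.3% of all genes tested. *Nfyb*, a subunit of the factor on the Y box, was at 25.9 to 26.8 TPM and at 18.3 to 21.6 TPM (log2 fold change -0.37, limma adjusted p = 0.312), and *Creb1*, whose product binds beside them, differed by -0.49 on that scale (limma adjusted p = 0.400). *Rfxank*, the other partner of *Rfx5*, was at 9.66 to 13.6 TPM and at 8.93 to 12.2 TPM (limma adjusted p = 0.794). Of the 20 regulators 5 were lowest in *VP* replicate 1, *Rfxank* and the Y box subunit *Nfyc* among them, beside 20.0% of all genes tested.

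*Ifng* and *Irf1*, on the interferon gamma path, were highest in *VP* replicate 2. *Ifng*, the ligand, was at 0.14, 0.07 and 0 TPM in *Trp53fl/fl* tumors and at 0, 1.34 and 0.28 TPM in *VP* tumors, too low to be tested. *Irf1*, an induced transcription factor, was at 81.9, 81.2 and 86.0 TPM and at 67.2, 123 and 111 TPM, with *VP* replicate 1 lowest (limma adjusted p = 0.672). The genotypes overlapped in both genes. *Socs1*, an induced inhibitor, was also highest in *VP* replicate 2, at 2.89 TPM. The receptor chain *Ifngr1* and the kinases *Jak1* and *Jak2* were instead highest in *Trp53fl/fl* replicate 2, at 130, 58.1 and 34.35 TPM. In *VP* replicate 2 they were at 119, 49.6 and 21.0 TPM. *Jak1* was at 54.25 to 58.1 TPM in *Trp53fl/fl* and at 48.8 to 50.1 TPM in *VP* tumors, lowest in *VP* replicate 1 (limma adjusted p = 0.489). Such a lack of overlap, with lower values in *VP* tumors, was found for 13.3% of all genes tested. *Ifngr2*, the other receptor chain, was highest in *VP* replicate 3, at 81.6 TPM. Whether interferon gamma contributes to the class II pattern was not tested.

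MHC class I molecules present peptides from inside the cell to CD8 T cells, and their genes were not low in *VP* replicate 1 beside the *Trp53fl/fl* tumors. Over the class I list, mean log2(TPM + 1) was 7.13 in *VP* replicate 1 and 6.35 to 6.78 in the *Trp53fl/fl* tumors. In *VP* replicates 2 and 3 it was 7.74 and 7.36, so replicate 1 was the lowest *VP* tumor here too. Of 9 class I genes, 8 had every *VP* tumor above every *Trp53fl/fl* tumor, beside 6.03% of all genes tested. None was lowest in *VP* replicate 1, beside 20.0% of all genes tested. None passed the adjustment (limma), while 8 had an unadjusted p-value under 0.05, all toward *VP*, beside 4.51% of all genes tested. *B2m*, the light chain of class I, was at 849.8 to 1062 TPM in the *Trp53fl/fl* and 1337 to 1924 TPM in the *VP* tumors (limma adjusted p = 0.199), and its heavy chain *H2-K1* at 819.8 to 1117 TPM and 1333 to 1763 TPM (limma adjusted p = 0.234). *H2-D1*, another heavy chain, was at 664 to 861 TPM and 1044 to 1218 TPM (limma adjusted p = 0.234). *Nlrc5*, the class I counterpart of *Ciita*, was the gene that overlapped, at 7.82, 6.45 and 5.15 TPM and at 7.92, 12.9 and 7.40 TPM (limma adjusted p = 0.466), so it was not low in *VP* replicate 1 as *Ciita* was. The mean of log2(TPM + 1) over the class I list minus that over the 10 class II genes was 1.37, 1.06 and 1.19 in the *Trp53fl/fl* tumors and 2.52, 1.90 and 1.57 in the *VP* tumors. The class I list thus stood farther above the class II genes in each *VP* tumor than in any *Trp53fl/fl* tumor, and farthest in *VP* replicate 1.

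In the gene order of RefSeq (GRCm38.p6), 4 class I processing genes, *Psmb9*, *Tap1*, *Psmb8* and *Tap2*, lie between *H2-DMb1* and *H2-Ob* within the class II region of chromosome 17. The proteasome subunits *Psmb8* and *Psmb9* and the peptide transporter *Tap1* and *Tap2* were above the *Trp53fl/fl* mean in *VP* replicate 1, by 0.56 to 0.97 on the log2(TPM + 1) scale. In the same tumor the neighbours on either side were below it, *H2-DMb1* at -0.27, *H2-Ob* at -0.75 and *H2-Ab1*, *H2-Aa* and *H2-Eb1* at -1.32 to -1.38. *Brd2*, a bromodomain gene of the region without a role in presentation, was at -0.23, -0.24 and -0.05 in *VP* replicates 1, 2 and 3. The low values of *VP* replicate 1 therefore did not extend over all genes of the region. The ratio of *Tap1* to *H2-Ab1* TPM was 0.0794 to 0.133 in the *Trp53fl/fl* tumors and 0.448, 0.252 and 0.132 in the *VP* tumors.

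**Figure D3:**
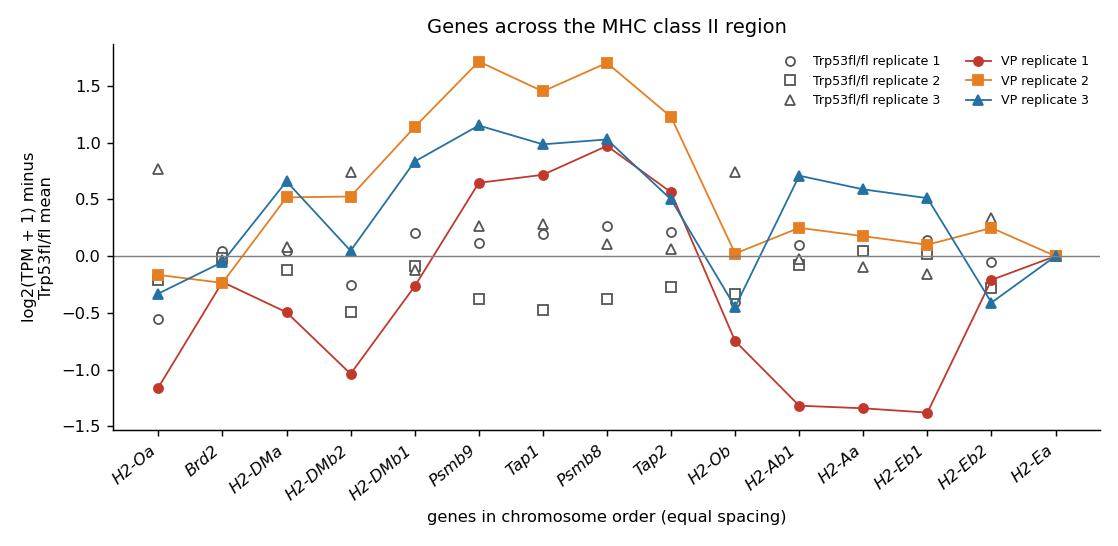
Log2(TPM + 1) minus the *Trp53fl/fl* mean (y axis) for 15 genes in their order on chromosome 17 (x axis, equal spacing), with lines joining the values of each *VP* tumor. *VP* replicate 1 stands at -1.38 at *H2-Eb1* and at 0.97 at *Psmb8*, within the same region.

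Costimulation and checkpoint ligands, which antigen-presenting cells show beside class II, were at low levels. Of 7 genes, 5 were tested and none passed the adjustment or an unadjusted p-value under 0.05 (limma). *Cd274*, which encodes PD-L1, was at 3.99, 3.55 and 3.80 TPM in *Trp53fl/fl* tumors and at 3.74, 7.94 and 4.43 TPM in *VP* tumors (limma adjusted p = 0.564). *Cd40* was at 4.56, 5.92 and 7.13 TPM and at 3.46, 4.99 and 6.11 TPM, and *Cd86* at 4.02, 3.33 and 2.89 TPM and at 2.64, 5.23 and 3.81 TPM. *Cd80* was at 3.0, 2.73 and 2.08 TPM and at 1.78, 2.73 and 2.45 TPM. Of the 7 genes, 5 were lowest in *VP* replicate 1, beside 20.0% of all genes tested.

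Markers of some immune cells were also low in *VP* replicate 1. All 8 markers of T cells, to which class II molecules present, were lowest in *VP* replicate 1, beside 20.0% of all genes tested. Their summed level was 19.8 TPM in that tumor, against 31.6 to 43.4 TPM in the *Trp53fl/fl* tumors and 37.3 to 42.9 TPM in the other *VP* tumors. *Cd3e*, a chain of the T cell receptor complex, was at 3.17, 2.97 and 4.85 TPM and at 1.93, 4.47 and 4.23 TPM. Of 10 dendritic cell markers, 6 were lowest in *VP* replicate 1, beside the same 20.0% of all genes tested. The summed level of this list was 11.9 TPM there, against 19.9 to 23.4 TPM in *Trp53fl/fl* tumors and 16.5 and 19.4 TPM in the other *VP* tumors. *VP* replicates 2 and 3, which were highest for most class II genes, were thus below all *Trp53fl/fl* tumors for the dendritic cell list and within their range for the T cell list. *Itgax* was at 8.29, 8.75 and 9.79 TPM in *Trp53fl/fl* tumors and at 5.35, 8.39 and 9.35 TPM in *VP* tumors. *Zbtb46* was at 0.68 TPM in *VP* replicate 1 and at 0.81 to 1.05 TPM in the other tumors. *Flt3* was not low in *VP* replicate 1, at 0.88 TPM against 0.32 to 0.93 TPM in the other tumors. *Siglech* was at 0 TPM in *VP* replicate 1 and at 0.21 to 0.81 TPM in the other tumors. Only 3 of the 10 dendritic cell markers reached the expression filter. The part of these cells in the low class II level was not tested.

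Macrophage markers gave another picture. Of 10 macrophage markers, 1 (*Adgre1*) was lowest in *VP* replicate 1, beside 20.0% of all genes tested. *Adgre1* was at 6.69 TPM there and at 11.3 to 15.5 TPM in the other tumors. *C1qa*, a complement component made by tissue macrophages, was at 153 TPM there, against 148 to 156 TPM in the *Trp53fl/fl* tumors. The summed level of the list was 615 TPM in *VP* replicate 1, 559 to 603 TPM in the *Trp53fl/fl* tumors and 770.3 and 779.5 TPM in the other *VP* tumors. Of 6 pan-leukocyte markers, 1 (*Cd52*) was lowest in *VP* replicate 1, and their summed level was 232 TPM in *VP* replicate 1, against 253 to 294 TPM in the *Trp53fl/fl* tumors and 310.4 to 359 TPM in the other *VP* tumors. The ratio of *H2-Ab1* to *C1qa* was 0.556 in *VP* replicate 1 and 1.34 to 1.77 in the other 5 tumors. *H2-Ab1* was thus low relative to this 1 marker, and no ratio to *Adgre1* was taken. The ratio of *H2-Ab1* to *Ptprc* was 10.5 in *VP* replicate 1, close to the 12.4 of *Trp53fl/fl* replicate 2, and 19.5 to 44.3 in the other 4 tumors. None of the T cell, dendritic cell, macrophage, B cell or pan-leukocyte markers passed the adjustment (limma). At an unadjusted p-value under 0.05 only *Cd68* and *Cd14* of the macrophage list differed, both toward *VP*, beside 4.51% of all genes tested.

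Of 8 markers of neutrophils, cells that carry little class II, 1 was lowest in *VP* replicate 1, beside 20.0% of all genes tested. Their summed level was 295 to 634 TPM in the *Trp53fl/fl* tumors and 1135 to 1872 TPM in the *VP* tumors. The adjustment was passed by 1 of the 8 (*Ngp*, log2 fold change 4.37, limma adjusted p = 0.0080), beside 0.0794% of all genes toward *VP*. At an unadjusted p-value under 0.05, 6 of the 8 were higher in *VP* tumors, beside 4.51% of all genes. Without overlap, 6 were higher in *VP* tumors, beside 6.03% of all genes. Epithelial markers summed to 8463 to 8497 TPM and to 8907 to 10083 TPM. None of the 8 passed the adjustment, and 2 (*Krt19* and *Cldn7*) had an unadjusted p-value under 0.05, both toward *VP*, beside 4.51% of all genes. Neither the stromal nor the endothelial list had a gene past the adjustment, with 2 stromal genes lower (*Pdgfra* and *Lum*) and 1 endothelial gene higher (*Vwf*) in *VP* tumors at an unadjusted p-value under 0.05, beside the 8.0% and 4.51% over all genes.

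**Figure D4:**
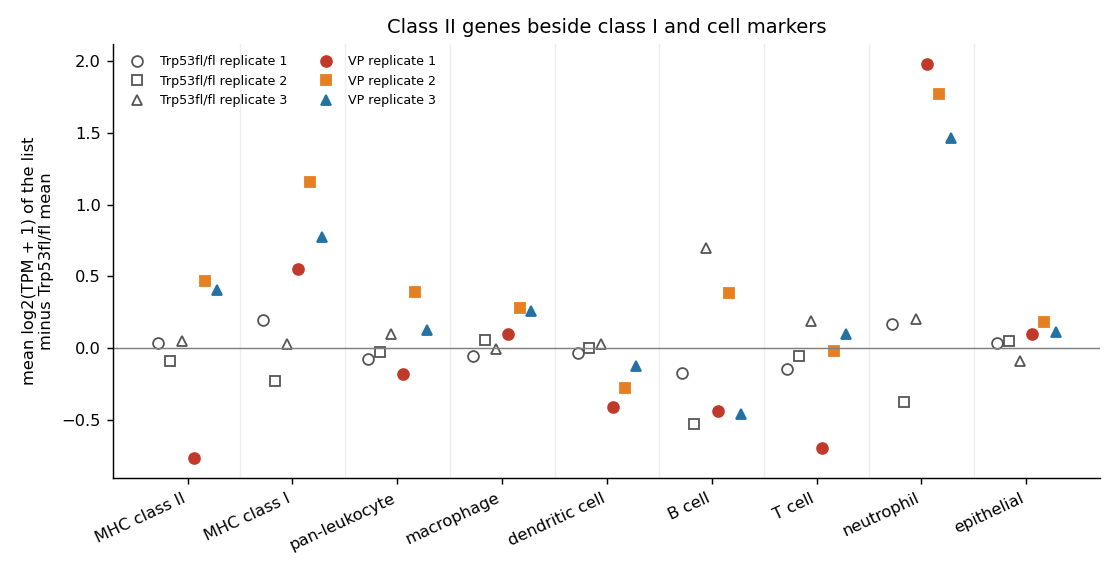
Mean log2(TPM + 1) of each gene list minus its *Trp53fl/fl* mean (y axis) in each of the 6 tumors, with open grey symbols for *Trp53fl/fl* and filled coloured symbols for *VP*. *VP* replicate 1 stands below all other tumors for the class II members and for the T cell, dendritic cell and pan-leukocyte markers, and above all *Trp53fl/fl* tumors for the class I genes and the macrophage, neutrophil and epithelial markers.

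*VP* replicate 1 also had the lowest mean log2(TPM + 1) of the 6 tumors for the stromal markers (6.27 against 6.33 to 6.74). The same held for the accessory (5.427 against 5.436 to 5.660), regulator (4.277 against 4.321 to 4.504) and costimulation lists (1.67 against 1.90 to 2.12). It was the lowest tumor for 2 of 6 stromal, 4 of 13 accessory and 5 of 20 regulator genes, beside 20.0% of all genes tested. The summed level of the accessory list was 2180.4 TPM there, above the 1994.5 to 2090.6 TPM of the *Trp53fl/fl* tumors.

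Genes outside the list that followed the class II profile were ranked by the root mean square difference of log2(TPM + 1), each gene centred on its own mean over the 6 tumors, from the mean profile of the 9 members tested. The closest were *Slamf8*, a receptor of myeloid cells (0.0962), *Lst1*, a leukocyte transcript (0.140), *S100a4*, a calcium-binding protein (0.145), *5730471H19Rik* (0.155) and the chemokine *Ccl8* (0.162). *Ckb*, *Gm12216*, *Gm48426*, *Trpv6* and *Ttc8* followed, with differences of 0.163 to 0.177. *Slamf8* was at 2.68, 2.43 and 2.86 TPM in *Trp53fl/fl* tumors and at 0.88, 3.55 and 3.43 TPM in *VP* tumors, and *Ccl8* at 27.2, 23.6 and 23.1 TPM and at 11.6, 42.4 and 40.4 TPM. Among all 15117 genes the members themselves took ranks 2 (*H2-DMa*), 4 (*Cd74*), 13 (*Ciita*), 47 (*H2-Ab1*), 49 (*H2-Aa*), 71 (*H2-Eb1*), 196 (*H2-DMb1*), 2543 (*H2-DMb2*) and 9775 (*Ctss*), although each contributes to the profile. The measure rests on 6 tumors and weighs *VP* replicate 1 most, since the mean profile stood at -0.85 there and between -0.09 and 0.47 in the other tumors.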

How the data were processed

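The authors extracted total RNA from dissected colorectal tumors, selected poly(A) RNA and sequenced it from both ends. They deposited gene values as TPM with 2 decimals, in a column for each library. The submitters' processing notes name HISAT2, StringTie and the build mm9. Versions and annotation are not given in the sources used here. Since TPM share a common sum, an abundant gene lowers the value of every other gene in that tumor, and no counting error can be given.

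Columns were assigned through the tumor codes in the labels. Age, doses and days are those of the study's methods. From the TPM, log2(TPM + 1) was tested for genes that reached 1 TPM in 3 or more tumors, with limma 3.58.1 in R 4.3.3 (empirical Bayes with trend, Benjamini-Hochberg adjustment over 15117 genes, without covariates), after a test on simulated data. Fold changes on this scale understate those of low genes. The members and lists were chosen with earlier results of these data known. The rule named all members, the 10 genes closest in profile and, of each other list, genes past the adjustment, the 3 with the largest log2 fold change and the first 3 listed. Of the cell marker lists only part of these are given, and genes outside the rule were named after their values were seen. Alternatives were a pseudocount of 0.1, no filter, median-of-ratios rescaling, quantile normalization, no trend, a replicate block and leaving out each tumor. Promoter sequences and gene order are from RefSeq (GRCm38.p6) and were matched by symbol. No expression value was read by coordinate. A regulator that the rule names is not reported here.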

Additional observations from a re-analysis of the deposited data

How the results depend on the processing

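No member passed an adjusted p-value under 0.05 in the main setting or in any alternative run, and of 108 values of single members under the alternatives 96 kept their direction and 12 turned it. The cause of each change was not tested. *Ciita* turned to 0.015 with median-of-ratios rescaling and to 0.036 with quantile normalization. With each tumor left out in turn, log2 fold changes ran from -0.22 to 0.64 for *Cd74*, from -0.40 to 0.44 for *Ciita*, from -0.58 to 0.38 for *H2-Aa*, from -0.53 to 0.48 for *H2-Ab1*, from -0.64 to 0.31 for *H2-Eb1* and from -0.50 to 0.29 for *H2-DMb2*, with the highest value in each case without *VP* replicate 1. The median over the members ran from -0.30 to 0.44 and the difference in mean level from -0.18 to 0.44. *H2-DMa*, *H2-DMb1* and *Ctss* stayed positive in each alternative.

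The number of genes with an adjusted p-value under 0.05 over all genes was 25, 10 with the replicate block, and 3 (without *Trp53fl/fl* replicate 1) to 23 with a tumor left out. Tumors with the same replicate number did not deviate together (correlations of deviations across genes of 0.0185, -0.052 and 0.0175), so the numbers were not taken as pairs, and the block changed no call of a member. Without counts, the depth that limits *H2-Eb2*, *Ifng* and the weak markers is unknown.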
